A study of Mus musculus with 6 samples.

Results

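The genes described here encode enzymes that attach a sugar acid, a sulfate or glutathione to a compound in liver: the UDP-glucuronosyltransferases (UGT), the sulfotransferases (SULT) and the glutathione S-transferases (GST). They were chosen by name and by level. Of the 55536 genes in the files, 62 protein-coding genes had a symbol of the Ugt1a to Ugt3a, Ugt2b, Sult1 to Sult5 or Gsta, Gstk, Gstm, Gsto, Gstp, Gstt or Gstz families, and 43 of these reached 0.5 FPKM (a read number divided by exon length and library size) in at least 3 of the 6 libraries. The 43 comprise 5 Ugt1a, 10 Ugt2 and Ugt3, 8 Sult, 4 Gsta, 7 Gstm and 9 other Gst genes. Since a minimum level chose them, that they were expressed is no finding. The libraries were made from total liver RNA of male C57BL/6 mice, an inbred strain, which were 6 weeks old at the start. One group of 3 libraries came from mice given polystyrene microplastics (PS-MP, small plastic particles) by mouth at 0.4 mg per day, dosed 2 times a week for 8 weeks, and the other group of 3 from mice given water on that schedule. The sources used here do not give the particle size. Whether each library is a different mouse is not stated either, so the p-values rest on a spread that may be technical.

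Conjugation is the step of detoxification that makes fat-soluble compounds easier to excrete in bile and urine. UGT enzymes sit in the membrane of the endoplasmic reticulum and use UDP-glucuronic acid, SULT enzymes are cytosolic and use the sulfate donor PAPS, and GST enzymes use glutathione against electrophiles and peroxides. In liver these genes are expressed mainly in hepatocytes and are controlled by the xenobiotic receptors CAR, PXR and AHR, by the stress factor NRF2, and by the clock output factors DBP, TEF and HLF.

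The recovered totals ran from 13082210 to 16948343 reads per library. Hepatocyte markers (8 genes, none at 0) summed to 46280 to 48950 FPKM in water libraries and 39550 to 46120 FPKM in PS-MP libraries. The sum came mostly from Alb in every library and was lowest in PS-MP replicate 3, where Alb was lowest too (24620 FPKM). Ttr was also lowest there (1865 FPKM), Cyp2e1 was highest there (4855 FPKM), and the other markers were neither. The 8 brain markers, which liver should hardly contain, summed to 1.27 to 1.454 FPKM in water libraries, with 2 of them at 0 in all 3. They summed to 3.506, 2.335 and 25.67 FPKM in PS-MP replicates 1, 2 and 3. The 6 fat markers, none at 0 in every library, summed to 37.27, 1.933 and 12.5 FPKM in water replicates 1, 2 and 3. In PS-MP replicates 1, 2 and 3 they summed to 1.55, 1.579 and 16.15 FPKM. Intestine markers (6 genes, mostly Fabp2 and Lgals4) summed to 80.1 to 92.57 FPKM in water and 73.57 to 81.57 FPKM in PS-MP libraries. Of the 6 kidney markers, 5 had 0 reads in all libraries. In whole liver, fewer cells of a type and less RNA per cell cannot be told apart.

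None of the 43 conjugation genes differed between PS-MP and water at an adjusted p under 0.05 (limma-trend across 13299 genes), beside 65 of all genes tested, or 0.489% (0.241% higher and 0.248% lower in PS-MP). At an unadjusted p under 0.05 there were 4 conjugation genes (9.3%), against 13.1% of all genes. The same 4 genes were those whose groups did not overlap: Gstt3, Sult1d1 and Gstt2 were higher in every PS-MP library than in any water library, and Gstm6 was lower. Among all genes tested the groups did not overlap for 19.2%, with PS-MP higher for 11.1% and lower for 8.12%. The 3 shares for conjugation genes lay below those of all genes, so these counts are no result about the conjugation genes as a set.

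The differences were small, and the intervals bound most of them. For 36 of 43 genes (83.7%) the fold difference was under 1.2, against 84.4% of all genes. Folds and intervals are on the log2(FPKM + 0.5) scale, which understates changes of low genes. Sult1e1, for example, averaged 0.524 FPKM in water and 0.721 FPKM in PS-MP libraries, with a fitted fold of 1.18. The unadjusted 95% interval lay within 2-fold in both directions for 41 genes, all but Gstt3 and Ugt2b37, and within 1.5-fold for 32. The log2 difference, PS-MP over water, was positive in 29 genes and negative in 14 (67.4% positive, against 53.7% of all genes), with a median of 0.08 against 0.01 for all genes. Under TMM scaling 27 were positive, since Gsta4 and Gstm5 changed sign. Over 14 refits with other settings or 1 library left out, 23 of the 43 genes kept a single sign.

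**Figure D1:**
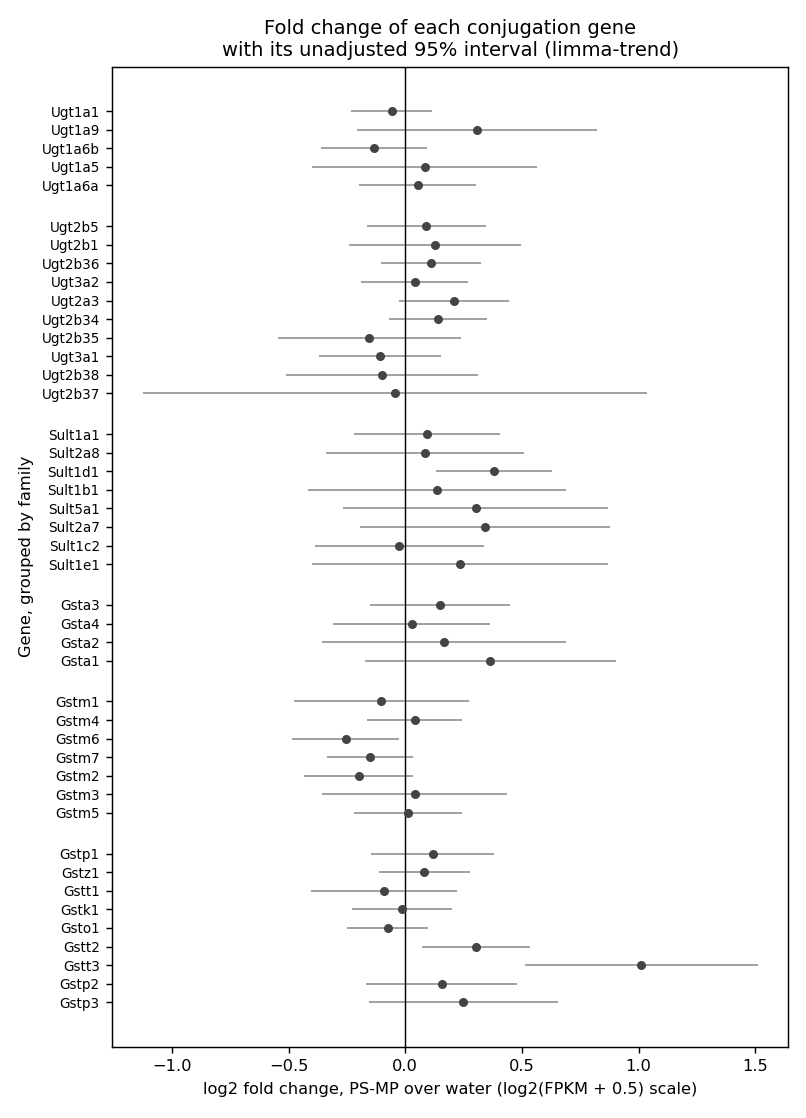
Fold change of each of the 43 genes on the log2(FPKM + 0.5) scale, PS-MP over water, with points for the limma-trend estimate and lines for the unadjusted 95% interval, grouped by family and ordered by mean level. Most estimates sit near 0, and Gstt3 stands alone at 1.01.

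The summed level of all 43 genes was 3480, 3270 and 3250 FPKM in water replicates 1, 2 and 3 and 3673, 3446 and 3476 FPKM in PS-MP replicates 1, 2 and 3, on average 0.859% of a library's summed FPKM. UGT genes made up 1467 to 1647 FPKM of a library, GST genes 1246 to 1494 FPKM and SULT genes 421.8 to 584.1 FPKM. FPKM divides by the merged length of all exons of a gene, which may include exons that gave the gene no reads. Such a gene is understated, as may hold for the Ugt1a genes. The order of genes and the family sums are therefore approximate. In these units, 3 genes averaged at least 300 FPKM over the 6 libraries: Gstp1 (455.8), Ugt2b5 (442.7) and Gstm1 (374.1). Below them stood Ugt2b1 (282.7), Ugt2b36 (241.1), Sult1a1 (200.6) and Sult2a8 (191.5), and neighbours in this order overlapped in their ranges over libraries, as they did all along the order except between Ugt1a6a and Gstm5. In all, 11 genes averaged at least 100 FPKM, 28 at least 10 and 42 at least 1.

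**Figure D2:**
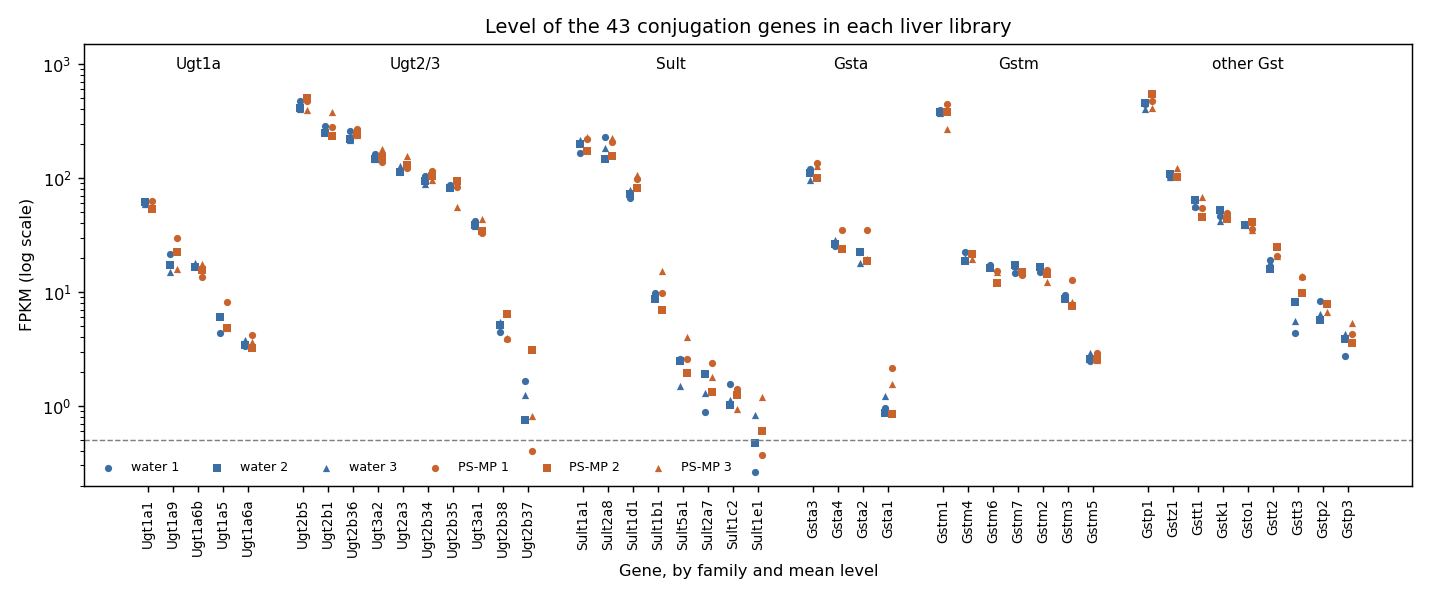
FPKM of the 43 genes in each library on a log axis, by family and mean level; blue marks are water and orange marks PS-MP libraries, with the shape giving the replicate, and the dashed line is the 0.5 FPKM threshold. Levels run from Gstp1 and Ugt2b5 above 400 FPKM on average to Sult1e1 at the threshold.

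Most of these genes lie in clusters. With a gap of at most 1 Mb, 36 of the 43 fell into 8 clusters of more than 1 member in GENCODE M21 on GRCm38, and 7 stood alone. The largest, 11 genes at chr5:86889767-87591594, holds all Ugt2a and Ugt2b members followed by Sult1b1, Sult1d1 and Sult1e1. In that stretch log2 differences ran from -0.15 (Ugt2b35) to 0.38 (Sult1d1).

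The Ugt1a genes occupy 1 locus, chr1:88070800-88219003, where each gene has its own first exon joined to a common set of last exons. Ugt1a1, the enzyme that conjugates bilirubin, had 59.6, 61.1 and 58.6 FPKM in water replicates 1, 2 and 3 and 63.2, 53.7 and 55.6 FPKM in PS-MP replicates 1, 2 and 3. Ugt1a9, which conjugates bulky phenols, had 21.4, 17.35 and 14.8 FPKM in water and 29.98, 22.4 and 15.8 FPKM in PS-MP libraries. Ugt1a6b, of the group that conjugates small planar phenols, had 16.6, 16.7 and 17.8 FPKM in water and 13.45, 15.7 and 17.5 FPKM in PS-MP libraries. Groups overlapped in all 3. PS-MP replicate 1 had the highest Ugt1a1 and Ugt1a9 values and the lowest Ugt1a6b value. The log2 differences were -0.06 (SE 0.08, adjusted p = 0.789) for Ugt1a1, 0.31 (SE 0.22, adjusted p = 0.599) for Ugt1a9 and -0.13 (SE 0.10, adjusted p = 0.602) for Ugt1a6b. The remaining pair, Ugt1a5 and Ugt1a6a, averaged 5.70 and 3.60 FPKM, with log2 differences of 0.08 and 0.05. Shared sequence may limit how far these genes can be told apart. Of the 50-base stretches, 58.16% in Ugt1a1 and 95.98% in Ugt1a6a also occur in another gene, nearly all in the other Ugt1a genes. Yet Ugt1a8, with 59.2% of its exon bases in common with other genes on its strand, had 0 reads in all 6 libraries. Reads of the common exons were thus not counted for each Ugt1a gene. The exon length still includes these exons, so Ugt1a FPKM may be understated.

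The promoter window of Ugt1a9 is shown because it holds a match to TTANGTAA, the pattern searched here for DBP, TEF and HLF. N stands for any base, so a match need not be a site that these factors bind. Capitals mark the match; the window is the 120 bases before the RefSeq start on GRCm38.p6, at chr1:88070659-88070778 on the plus strand, written 5′ to 3′.
Ugt1a9: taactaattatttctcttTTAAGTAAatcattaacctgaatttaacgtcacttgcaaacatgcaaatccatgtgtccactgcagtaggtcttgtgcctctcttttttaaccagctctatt
The match begins at position -102, counted from the start. Within 250 bases before the start, the pattern occurred in 2.44% of the 27025 genes of the RefSeq table. Of the 38 members that the table holds, 3 had it: Ugt1a9 (TTAAGTAA), Ugt2b1 (TTACATAA, which matches on the other strand) and Sult1a1 (TTAGGTAA). A match is only a stretch of letters, and binding was not measured here.

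Among Ugt2 and Ugt3 genes the groups overlapped for all 10 members. The family summed to 1525, 1363 and 1378 FPKM in water libraries and 1517, 1503 and 1549 FPKM in PS-MP libraries. Its 2 most abundant members were Ugt2b5 and Ugt2b1, of a family that conjugates steroids, bile acids and drugs. Ugt2b5 had 471, 414 and 400 FPKM in water replicates 1 to 3 and 472.5, 501 and 398 FPKM in PS-MP replicates 1 to 3, a log2 difference of 0.09 (SE 0.11, adjusted p = 0.773). Ugt2b1 had 283, 248.5 and 271 FPKM in water and 279.5, 236 and 378 FPKM in PS-MP libraries. PS-MP replicate 3 alone lay above the water range of Ugt2b1, and the difference of 0.13 ran from -0.06 to 0.28 over the refits. Ugt2b36 had 258, 221.5 and 216 FPKM in water and 270, 242 and 239 FPKM in PS-MP libraries, with a log2 difference of 0.11.

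The smallest p of the family was that of Ugt2a3, whose human counterpart acts on bile acids. Its FPKM values were 112.8, 112.4 and 126.8 in water and 122.4, 130.2 and 156.1 in PS-MP libraries, with PS-MP replicate 1 below the highest water value. The log2 difference was 0.21 (SE 0.10, unadjusted 95% interval -0.03 to 0.45, adjusted p = 0.438). Ugt2b34 had 103, 93.6 and 87.9 FPKM in water and 114, 105 and 95.3 FPKM in PS-MP libraries, a log2 difference of 0.14 (adjusted p = 0.559). The other members above 10 FPKM on average, Ugt3a2, Ugt2b35 and Ugt3a1, had log2 differences of 0.04, -0.15 and -0.11. Ugt3a enzymes use sugars other than glucuronic acid.

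The promoters of Ugt2b1 and of a group of Ugt2b neighbours are shown for 2 reasons. Ugt2b1 holds a match to the pattern searched for DBP, TEF and HLF, and 4 neighbours share a longer run. In Ugt2b1 (chr5:86926504-86926623, minus strand, GRCm38.p6, from RefSeq) capitals mark the match to TTANGTAA, read on the other strand, which begins at -59.
Ugt2b1: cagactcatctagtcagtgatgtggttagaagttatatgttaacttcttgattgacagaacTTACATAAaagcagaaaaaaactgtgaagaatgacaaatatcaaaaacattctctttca
In the next 4 windows, 60 bases long and also on the minus strand of chromosome 5, capitals mark AGGTCA, the core bound by nuclear receptors such as CAR, PXR and HNF4. They lie at chr5:87140341-87140400, chr5:87092556-87092615, chr5:87254789-87254848 and chr5:87424204-87424263.
Ugt2b5: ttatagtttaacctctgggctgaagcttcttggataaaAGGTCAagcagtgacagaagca
Ugt2b36: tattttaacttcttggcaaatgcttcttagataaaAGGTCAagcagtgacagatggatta
Ugt2b37: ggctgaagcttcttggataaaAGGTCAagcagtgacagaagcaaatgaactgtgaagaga
Ugt2b38: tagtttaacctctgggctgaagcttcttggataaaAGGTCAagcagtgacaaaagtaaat
The 22 letters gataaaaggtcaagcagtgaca occurred in these 4 genes and in no other of the 27025 genes searched. The nuclear receptor core itself was common, in 15.76% of genes and 10 members. Levels of the 4 genes differed widely: Ugt2b5 averaged 443 FPKM, Ugt2b36 241, Ugt2b38 4.88 and Ugt2b37 1.33 FPKM. Ugt2b37, the lowest of the family, had 1.67, 0.748 and 1.24 FPKM in water and 0.404, 3.11 and 0.814 FPKM in PS-MP libraries, from 10 to 94 reads. Its PS-MP replicates 1 and 2 held its lowest and its highest value, and its interval ran from -1.12 to 1.04. Reads may also be shared here, since 18.32% of the 50-base stretches of Ugt2b37, 37.4% of those of Ugt2b38 and 41.74% of those of Ugt2b5 occur in another gene, mostly within the group.

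SULT genes had a median log2 difference of 0.19, with 7 of 8 positive under the deposited, TMM and median-of-ratios scalings, and none passed the test. Of these 7, Sult1d1, Sult2a7 and Sult5a1 stayed positive over all refits. The lowest refit differences of the others were -0.01 (Sult1a1), -0.15 (Sult1b1), -0.03 (Sult1e1) and -0.07 (Sult2a8). Sult1a1, which sulfates phenols, had 167, 198 and 217 FPKM in water and 222, 172 and 228 FPKM in PS-MP libraries, a log2 difference of 0.09 (SE 0.13, adjusted p = 0.813). Sult2a8, which sulfates bile acids in mouse liver, had 228.5, 147 and 183 FPKM in water and 207, 157 and 227 FPKM in PS-MP libraries, a difference of 0.09 (SE 0.18, adjusted p = 0.878). Both genes varied as widely within the water group as between groups.

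Sult1d1, an enzyme of catecholamine and eicosanoid sulfation, was the SULT gene whose groups did not overlap (ENSMUSG00000029273, chr5:87554645-87569027, minus strand). It had 67.4, 72.2 and 77.8 FPKM in water replicates 1 to 3 and 97.7, 81.0 and 106 FPKM in PS-MP replicates 1 to 3. The lowest PS-MP value, in replicate 2, stood close to the highest water value. The PS-MP mean of 95.01 ± 12.8 FPKM (SD, n = 3) was 1.30-fold the water mean of 72.5 ± 5.23 FPKM (SD, n = 3) on the fitted scale. The log2 difference of 0.38 (SE 0.11, unadjusted 95% interval 0.13 to 0.63) gave an adjusted p of 0.197, and 0.125 to 0.491 over the refits, in which the difference was 0.30 to 0.49. None of its 50-base stretches occurs in another gene. Its promoter, at chr5:87569007-87569126 on the minus strand (GRCm38.p6, RefSeq), is shown as that of the SULT gene whose groups did not overlap. Capitals mark, at -47, the reverse of GCGTG, the core bound by AHR, which 30.85% of genes and 8 members hold.
Sult1d1: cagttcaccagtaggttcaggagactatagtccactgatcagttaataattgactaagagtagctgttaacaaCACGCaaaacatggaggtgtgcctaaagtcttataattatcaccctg

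The low SULT genes spread widely between libraries. Sult2a7 had 0.876, 1.89 and 1.29 FPKM in water and 2.39, 1.33 and 1.78 FPKM in PS-MP libraries, a log2 difference of 0.34 (SE 0.23, adjusted p = 0.57). Sult5a1, an enzyme whose substrates are little known, had 2.56, 2.47 and 1.496 FPKM in water and 2.58, 1.96 and 4.005 FPKM in PS-MP libraries (0.30, SE 0.25, adjusted p = 0.641). Sult1e1, the estrogen sulfotransferase, had 0.265, 0.475 and 0.832 FPKM in water and 0.369, 0.606 and 1.19 FPKM in PS-MP libraries, from 5 to 22 reads. PS-MP replicate 3 was the highest library for both Sult5a1 and Sult1e1. It was also the highest for Sult1b1, an enzyme acting on phenols and thyroid hormone, at 15.4 FPKM against an average of 9.20 FPKM in water. For Sult1c2 it was the lowest, with 1.57, 1.02 and 1.12 FPKM in water and 1.41, 1.26 and 0.944 FPKM in PS-MP libraries, and a log2 difference of -0.03, the one negative value among SULT genes.

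Sult1e1 marks the edge of the selection. It reached 0.5 FPKM in exactly 3 libraries, 1 water and 2 PS-MP, with a third-highest value of 0.606 FPKM. Next inside were Gsta1 (1.225) and Ugt2b37 (1.236), and just outside were Ugt1a7c (0.294), Ugt1a10 (0.203) and Sult3a1 (0.153). Of the 19 matching genes below the threshold, 8 had 0 reads in all 6 libraries, where a count of 0 allows up to 3 reads, or 0.177 to 0.229 CPM (reads brought to one library size), by counting error alone. Of these 19, 11 were Sult genes. Sult2a1 to Sult2a6 together had 12 reads in all 6 libraries, and Sult3a1 had 13; as background, these forms are predominantly female in mouse liver, and the mice were male. Sult4a1, the SULT form of brain, had 0 reads in each water library and, in PS-MP replicates 1 to 3, 2, 3 and 54 reads, the most in the library with the highest brain marker sum. The part of those markers in any result here was not tested.

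GST genes of the alpha class, which reduce peroxides and conjugate products of lipid oxidation, were highest in PS-MP replicate 1 for all 4 members. Gsta3, the most abundant, had 120, 111 and 95.9 FPKM in water and 136, 100 and 128 FPKM in PS-MP libraries. Gsta2 had 22.5, 22.5 and 17.96 FPKM in water and 35.1, 18.8 and 19.6 FPKM in PS-MP libraries. Only replicate 1 of the PS-MP group thus lay above the water range of Gsta2. Gsta4, the enzyme for the aldehyde 4-hydroxynonenal, had 25.2, 26.2 and 28.8 FPKM in water and 34.96, 23.7 and 24.2 FPKM in PS-MP libraries, with PS-MP replicates 2 and 3 both below the water range. Gsta1 had 0.964, 0.864 and 1.225 FPKM in water and 2.16, 0.853 and 1.54 FPKM in PS-MP libraries, from 13 to 27 reads. The log2 differences were 0.15 (Gsta3), 0.17 (Gsta2), 0.03 (Gsta4) and 0.36 (Gsta1), with adjusted p between 0.551 and 0.956. That of Gsta4 turned negative under TMM scaling, and that of Gsta2 ran from -0.12 to 0.32 over the refits. Of the 50-base stretches of Gsta1, 89.71% occur in another gene, mostly in Gm3776 (0 to 9 reads per library), so its few reads are uncertain.

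The mu class, a cluster of 7 genes at chr3:107895821-108044894, was the family with a negative median log2 difference, -0.10, with 3 genes positive and 4 negative (2 and 5 under TMM and median-of-ratios scaling). Gstm1 made up 79.1% to 84.4% of its summed FPKM. It had 393.5, 383 and 374.5 FPKM in water and 443, 379 and 272 FPKM in PS-MP libraries. PS-MP replicate 1 thus held the highest and PS-MP replicate 3 the lowest value, and the group difference was -0.10 (SE 0.16, adjusted p = 0.83). Gstm4, second in level, had 22.45, 18.6 and 20.01 FPKM in water and 21.7, 21.65 and 19.4 FPKM in PS-MP libraries.

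Gstm6 was the conjugation gene that was lower in every PS-MP library (ENSMUSG00000068762, chr3:107938847-107943749, minus strand). It had 17.15, 16.35 and 16.8 FPKM in water and 15.2, 11.9 and 15.03 FPKM in PS-MP libraries. The log2 difference was -0.26 (SE 0.10, unadjusted 95% interval -0.49 to -0.02, adjusted p = 0.334), and -0.14 without PS-MP replicate 2, the lowest library. Gstm2 had 14.9, 16.7 and 16.6 FPKM in water and 15.5, 14.35 and 12.1 FPKM in PS-MP libraries (-0.20, adjusted p = 0.449). Gstm7 had 14.6, 17.1 and 16.8 FPKM in water and 14.0, 14.9 and 14.5 FPKM in PS-MP libraries (-0.15, adjusted p = 0.471). In both genes the water value of replicate 1 overlapped the PS-MP group. The differences of Gstm2, Gstm6 and Gstm7 kept their sign in all 14 refits, and 8.3%, 9.74% and 0.53% of their 50-base stretches occur in another gene.

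The theta class held the largest difference of all 43 genes. Its members Gstt1, Gstt2 and Gstt3, which act on small halogenated compounds and peroxides, lie in 1 cluster at chr10:75774115-75837424 on the minus strand, with Gstt4, which had 2 reads in all libraries, between Gstt1 and Gstt2. Gstt3 (ENSMUSG00000001665, chr10:75774115-75781414) had 4.35, 8.155 and 5.54 FPKM in water replicates 1 to 3 and 13.5, 9.80 and 13.9 FPKM in PS-MP replicates 1 to 3, from 254 to 798 reads. The groups did not overlap, though water replicate 2 and PS-MP replicate 2 stood near each other. The means were 6.02 ± 1.945 FPKM in water and 12.4 ± 2.27 FPKM in PS-MP libraries (SD, n = 3 each). The fitted difference was 2.02-fold, a log2 difference of 1.01 (SE 0.22, unadjusted 95% interval 0.51 to 1.51), with an adjusted p of 0.116 by limma-trend. Limma-voom on the recovered reads gave a log2 difference of 1.06 with an adjusted p of 0.0499, the one setting of 14 in which any conjugation gene passed. Over the refits the difference was 0.82 to 1.24 and the adjusted p 0.0499 to 0.322.

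Gstt2 (ENSMUSG00000033318, chr10:75831114-75837424) had 19.03, 15.8 and 18.4 FPKM in water and 20.7, 24.6 and 20.8 FPKM in PS-MP libraries, a 1.23-fold difference. The groups did not overlap, with PS-MP replicate 1 closest to the water range. The log2 difference was 0.30 (SE 0.10, unadjusted 95% interval 0.07 to 0.53, adjusted p = 0.263, and 0.19 to 0.513 over the refits). Gstt1, between Gstt3 and Gstt4, had 56.2, 63.6 and 57.2 FPKM in water and 54.1, 45.9 and 68.1 FPKM in PS-MP libraries, with overlapping groups and a log2 difference of -0.09 (SE 0.14). Of the 50-base stretches of Gstt3, 20.61% occur in another gene, 20.19% in the overlapping gene model Gm20441, which had 0 reads in all 6 libraries. For Gstt2 the share was 0.68%, and for Gstt1 none. The promoter of Gstt3 is shown as that of the member with the largest difference (chr10:75781423-75781542, minus strand, GRCm38.p6, RefSeq).
Gstt3: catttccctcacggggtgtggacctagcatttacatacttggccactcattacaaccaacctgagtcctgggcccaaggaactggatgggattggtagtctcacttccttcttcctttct
It has no capitals, since no match to any of the motifs searched lies in these bases. The fourth motif, the core TGACNNNGC bound by NRF2, was found in Gsta3, Gstm5 and Gstm7, 3 of 38 members, and in 11.52% of all genes. In Gstm5 it overlaps an AHR core.

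**Figure D3:**
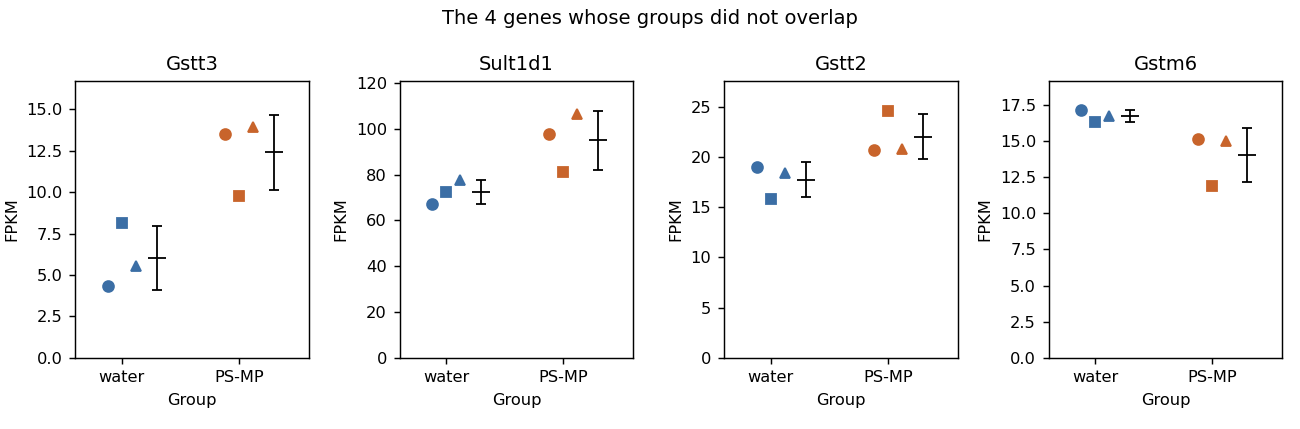
FPKM per library of the 4 genes whose groups did not overlap, with points for libraries (circle, square and triangle for replicates 1, 2 and 3) and black bars for the mean ± SD of each group. Gstt3, Sult1d1 and Gstt2 are higher and Gstm6 lower in every PS-MP library, and none passed the adjusted threshold by limma-trend.

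Of the remaining classes, Gstp1, a pi-class enzyme that is abundant in male mouse liver, had 450.5, 451 and 406 FPKM in water and 471, 547 and 410 FPKM in PS-MP libraries (0.12, SE 0.11, adjusted p = 0.703). Of the 50-base stretches of Gstp1 and Gstp2, 51.01% and 50.41% occur in another gene, mostly in each other. Gstp3, which shares none, had 2.76, 3.90 and 4.25 FPKM in water and 4.29, 3.59 and 5.315 FPKM in PS-MP libraries (0.25, SE 0.18, adjusted p = 0.587). Gstz1, an isomerase of tyrosine breakdown, had 101, 109 and 101 FPKM in water and 105, 103 and 123 FPKM in PS-MP libraries (0.08, adjusted p = 0.723). Gstk1, an enzyme of mitochondria and peroxisomes, and Gsto1, of the omega class, had log2 differences of -0.01 and -0.08. For all these genes the groups overlapped.

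Gene by gene, replicates of the PS-MP group stood farther apart than those of the water group for most conjugation genes. Their summed level did not show this, with an SD of 127.2 FPKM in water and 123.2 FPKM in PS-MP libraries. The median coefficient of variation of the 43 genes was 8.54% in water and 15.39% in PS-MP libraries, and it was larger in PS-MP for 32 genes (74.4%). Over all genes tested it was 10.41% and 11.15%, and larger in PS-MP for 53.5%. Among tested genes of at least 1 FPKM on average that share was 52.9%. Leaving out 1 library at a time, the PS-MP coefficient was larger for 25 (without PS-MP replicate 3) to 39 genes (without water replicate 1). The share of all genes tested moved as well, to 40.3% and 58.8% in these same cases, and to 62.1% at most, without water replicate 3. It was 47.9% and 47.2% without PS-MP replicates 1 and 2, where the coefficient was larger for 29 and 28 of the 43 genes. In each of these cases the reduced group's coefficient came from fewer libraries than that of the other group. The range therefore does not show the weight of single libraries alone. A coefficient over 3 libraries is itself imprecise, and the difference was not tested.

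The library with the highest value varied between genes. Of the 43 genes, 14 (32.6%) were highest in PS-MP replicate 1, 7 (16.3%) in replicate 2 and 13 (30.2%) in replicate 3. In water replicates 1 to 3 the numbers were 5 (11.6%), 3 (7.0%) and 1 (2.3%). Over all genes tested, the shares were 14.1%, 14.0% and 26.6% in PS-MP replicates 1 to 3 and 17.6%, 12.6% and 15.1% in water replicates 1 to 3. In PS-MP replicate 1 the highest genes were all 4 Gsta, 4 of 5 Ugt1a (Ugt1a1, Ugt1a5, Ugt1a6a and Ugt1a9), 3 Gstm genes (Gstm1, Gstm3 and Gstm5), Ugt2b34, Ugt2b36 and Sult2a7. That library was also the lowest for 4 Ugt2 and Ugt3 genes (Ugt2b37, Ugt2b38, Ugt3a1 and Ugt3a2). In PS-MP replicate 2 the highest genes were Ugt2b5, Ugt2b35, Ugt2b37, Ugt2b38, Gsto1, Gstp1 and Gstt2. In PS-MP replicate 3 they were 5 Sult genes (Sult1a1, Sult1b1, Sult1d1, Sult1e1 and Sult5a1), Ugt2a3, Ugt2b1, both Ugt3a genes, Gstp3, Gstt1, Gstt3 and Gstz1. PS-MP replicate 3 is also the library with the most brain marker RNA and the lowest hepatocyte marker sum, which is mostly Alb. The part of either in these values was not tested.

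**Figure D4:**
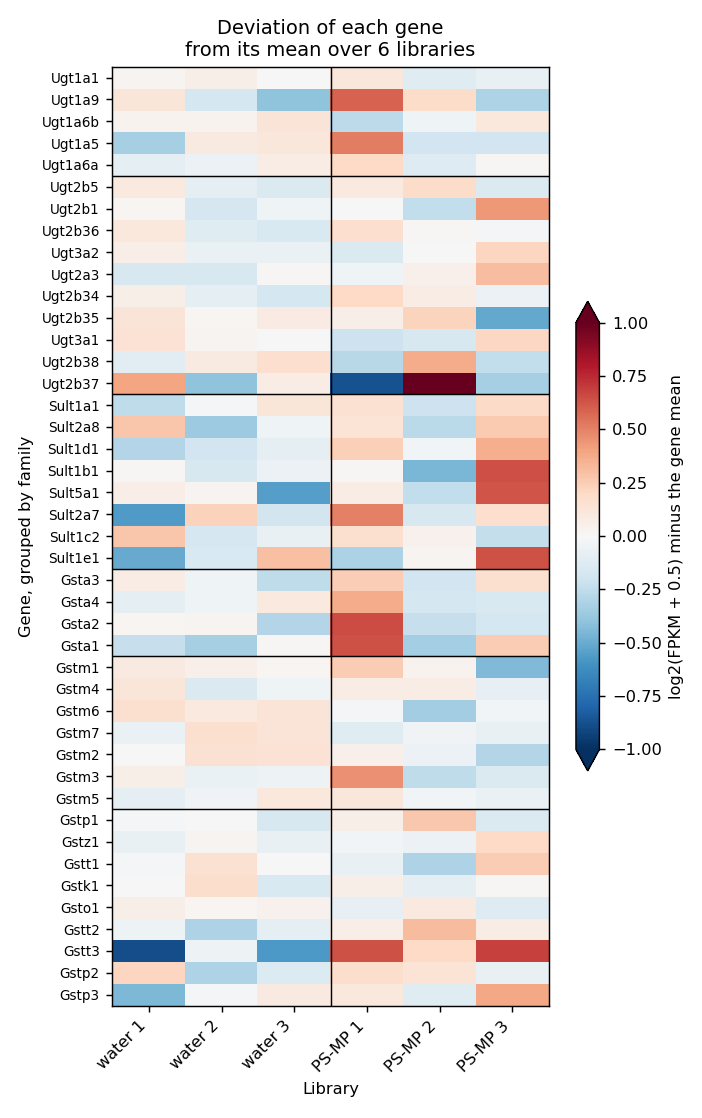
Deviation of log2(FPKM + 0.5) from the mean of each gene over the 6 libraries, with genes in rows by family and libraries in columns; red is above and blue below the mean. All 4 Gsta rows are red in PS-MP replicate 1, and Sult1b1, Sult5a1 and Sult1e1 are reddest in PS-MP replicate 3. Gstt3 is blue in water replicates 1 and 3, close to its mean in water replicate 2, and red in all 3 PS-MP columns.

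The genes that supply, export and control conjugation were read from 8 lists holding 81 genes, of which 74 were tested. Of these, 3 (4.05%) changed, all higher in PS-MP, beside 0.489% of all genes tested, of which 0.241% were higher. The lists were chosen with earlier results known, and their median log2 difference was 0.01. By role, none changed among 6 genes for UDP-glucuronic acid, 8 for PAPS and sulfate, 8 for glutathione, 16 other conjugating enzymes, 3 for hydrolysis of conjugates and 6 exporters. Of the 17 receptors and factors 2 changed, and of the 10 phase I targets 1 did.

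Dbp and Tef, clock output factors whose targets include detoxification genes, were the factors that passed the test, both higher in PS-MP libraries. Dbp had 1.06, 3.29 and 1.63 FPKM in water and 9.60, 11.1 and 17.1 FPKM in PS-MP libraries, a log2 difference of 2.45 (SE 0.33, adjusted p = 0.0366). Tef had 9.80, 13.2 and 11.6 FPKM in water and 20.9, 22.65 and 29.7 FPKM in PS-MP libraries (1.04, SE 0.15, adjusted p = 0.0386). Por, which passes electrons to microsomal P450 enzymes, had 107, 125 and 124 FPKM in water and 180, 184 and 174.5 FPKM in PS-MP libraries (0.60, SE 0.08, adjusted p = 0.0358). With any 1 library left out none of the 3 passed, except Dbp without water replicate 2 (adjusted p up to 0.16 for Dbp, 0.167 for Tef and 0.149 for Por over all refits). Hlf, named with Dbp and Tef above, had a log2 difference of 0.38 without overlap of the groups and did not pass in the main analysis (limma-trend, adjusted p = 0.164). No label gives the hour of collection. The 3 members with a match to TTANGTAA near the start had log2 differences of 0.31 (Ugt1a9), 0.13 (Ugt2b1) and 0.09 (Sult1a1), and none passed.

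The xenobiotic receptors did not pass the test, with log2 differences of 0.09 for PXR (Nr1i2), -0.02 for CAR (Nr1i3) and -0.29 for AHR (Ahr), nor did NRF2 (Nfe2l2), with -0.02. On the supply side, Ugp2, which makes UDP-glucose, had 83.55, 72.0 and 74.0 FPKM in water and 102, 93.3 and 97.85 FPKM in PS-MP libraries (0.35, adjusted p = 0.119), and Slc35d2, a nucleotide sugar carrier, had a difference of -0.14. Papss2, which makes PAPS, had a difference of 0.38 (adjusted p = 0.301), and Slc26a1, a sulfate carrier, one of -0.26 (adjusted p = 0.255). For glutathione, Chac2, which degrades it, had a difference of 0.34 (adjusted p = 0.179). Gclc, the catalytic subunit of its first step of synthesis, had 99.5, 76.4 and 72.4 FPKM in water and 71.7, 69.4 and 41.3 FPKM in PS-MP libraries (-0.47, adjusted p = 0.408). The groups of Gclc did not overlap, and PS-MP replicate 3 was by far the lowest.

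Among other conjugating enzymes the smallest p belonged to Baat, which joins bile acids to taurine (-0.22, adjusted p = 0.25), and Hnmt, which methylates histamine (0.38, adjusted p = 0.31). Abcc2, the exporter of conjugates into bile, had 112.5, 104 and 110 FPKM in water and 121, 127 and 124 FPKM in PS-MP libraries, with groups that did not overlap (0.19, adjusted p = 0.273), and Abcc6 had a difference of 0.08. The lysosomal sulfatases Arsa and Arsb had differences of 0.22 and -0.06. Cyp3a13, a P450 enzyme, had one of 0.33 (adjusted p = 0.103). In the same list Cyp2b10, the usual target of CAR, had 25.3, 44.1 and 34.5 FPKM in water and 18.9, 15.8 and 10.6 FPKM in PS-MP libraries, without overlap (-1.18, SE 0.24, adjusted p = 0.107). Among the factors, Bcl6, a repressor with higher levels in male liver, had 5.31, 9.35 and 6.55 FPKM in water and 4.005, 1.395 and 2.001 FPKM in PS-MP libraries, also without overlap (-1.41, SE 0.32, adjusted p = 0.124). Both were chosen after their values were seen. In all, the groups of 20 of the 74 genes (27.0%) did not overlap, beside 19.2% of all genes tested. These were 7 of 17 receptors and factors and 5 of 10 phase I targets (Por, Cyp3a13, Cyp3a25 and Nqo1 higher, Cyp2b10 lower), with 8 in the other lists. The lists were chosen with earlier results of these data known, so the larger share than over all genes is no finding.

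**Figure D5:**
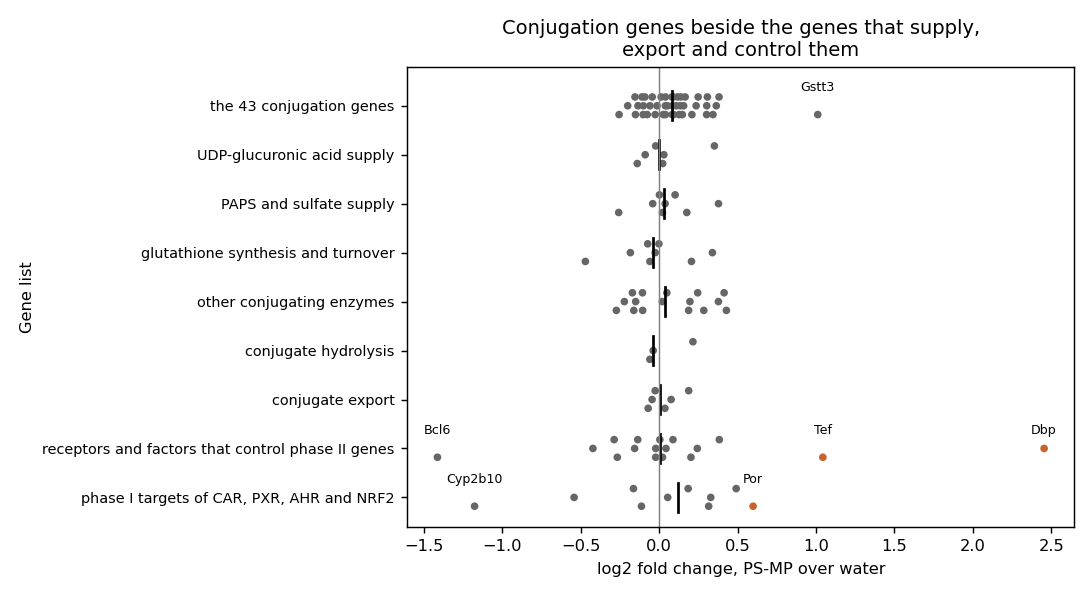
Log2 difference, PS-MP over water, of each tested gene of the 8 lists beside the 43 conjugation genes, with orange points for adjusted p under 0.05 and black bars for the median of each list. Dbp, Tef and Por are the orange points, while the conjugation genes gather around 0.08 with Gstt3 apart; Bcl6 and Cyp2b10 lie farthest below 0.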

How the data were processed

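FPKM values, 1 for each gene in each library, were made and deposited by the authors. Reads were handled with CASAVA, FastQC, MultiQC, Trimmomatic 0.38, HISAT2 2.1.0, featureCounts 1.6.0 and DESeq2 1.22.1, per the submitters' processing notes. The notes name GRCh38, but all 55536 identifiers are those of mouse GENCODE M21 (GRCm38), which gave symbols and coordinates. RNA selection, strand use and the treatment of reads shared between genes are not given in the sources used here. Therefore antisense and overlapping genes cannot be fully separated.

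FPKM times merged exon length gave whole reads within 0.001 for 100.0% of values above 0. These reads set the depth and the filter: at least 0.66 CPM in 3 libraries and 15 reads in all, leaving 13299 genes and all 43 members. Fold changes come from limma-trend (limma 3.58.1, R 4.3.3) on log2(FPKM + 0.5), which understates changes of low genes, with the group as the only term; p-values were adjusted by Benjamini-Hochberg over the 13299 genes, with a threshold of 0.05. The procedure was tested on simulated data. Intervals are unadjusted, and floors cover counting error only.

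Alternatives were pseudocounts of 0.1 and 1, no filter or 1 CPM, TMM and median-of-ratios scaling, limma-voom, a replicate block, other FPKM thresholds and each library left out. Full values were given for the 3 members with the smallest p and the 2 with the highest level in each family, those nearest the threshold, and members of counts of 5 or fewer. Pathway genes were named when called or as the 2 with the smallest p in a list; others were chosen after their values were seen, and 1 gene of the lists is not reported here. The members and lists were chosen with earlier results of these data known. Promoters are RefSeq windows on GRCm38.p6 for 38 of 43 members, searched on both strands over 250 bases before the start; the motifs and the windows printed were chosen after the values were seen. Shared sequence is the share of a gene's 50-base transcript stretches found in another gene. Tables were made with Python 3.11.15 and pandas 2.3.3.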

Additional observations from a re-analysis of the deposited data

How the results depend on the processing

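The number of conjugation genes that changed was 0 under every alternative run but limma-voom, where it was 1, and their median log2 difference stayed between 0.04 and 0.13. Over all genes, 65 changed in the main analysis, 55 to 68 with other pseudocounts, a filter of 1 CPM or other scalings, 0 without the low-count filter (2064 at an unadjusted p under 0.05), 133 with limma-voom, and 0 to 36 with 1 library left out (3, 31 and 0 without water replicates 1, 2 and 3; 36, 2 and 13 without PS-MP replicates 1, 2 and 3). Of the 74 pathway genes, 3 changed, against 0 without the filter, 5 with limma-voom (Bcl6 and Cyp2b10 added, both lower) and 0 to 1 with 1 library left out. With 1 library left out fewer samples enter the fit; the cause of the other shifts was not tested. The replicate block gave 23 genes over all, 0 pathway genes and 0 conjugation genes. The labels share replicate numbers 1 to 3, but same-numbered libraries did not deviate together (r = -0.036, 0.047 and -0.01 across genes), and water replicates 1 and 3 correlated best with another number, so the numbers are not taken as pairs. All-gene median log2 differences were 0.0143 by deposited scaling, -0.0123 by TMM and -0.0039 by median of ratios. The filter of 1 CPM left 42 conjugation genes, without Sult1e1. A quasi-likelihood count test was not run, since the deposited unit is FPKM. With 5 to 22 reads per library, Sult1e1 is limited by depth.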
